A study of Mus musculus with 5 samples.

Results

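Motor neuron markers were examined in bulk RNA sequencing of mouse spinal cord, in 2 libraries of Lhx1os -/- knockout (KO) mice and 3 libraries of wild type (WT) mice. The 10 genes are Isl1, Isl2 and Mnx1, which mark motor neurons in general, Mmp9, Chodl, Spp1, Calca and Calcb, which mark alpha and fast alpha motor neurons, Esrrb, listed for slow alpha motor neurons, and Esrrg, listed for gamma motor neurons. They were listed by symbol, not by level, though with earlier results of these data known. They are 10 of the 55471 genes in the deposited count table. All 10 passed the filter on low counts, which left 16052 genes for testing. KO mice were male C57BL/6J animals aged 3 months and at rest, homozygous for a CRISPR insertion in the second exon of the long non-coding RNA gene Lhx1os. The insert holds a synthetic polyadenylation signal and MAZ elements that destabilise the polymerase, and it was delivered with Cas9 mRNA and a single guide to fertilised eggs. WT mice were male C57BL/6J animals of the same age, also at rest. The labels do not say which segments of the cord were taken, how many founder lines were used or whether each library is a single animal. If libraries were not separate animals, the p-values measure only the spread between these samples.

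Spinal motor neurons are the cholinergic cells through which the cord drives muscle. LIM-homeodomain and related factors set up their identity in the embryo and stay at low levels in the adult. Alpha motor neurons drive the force-producing muscle fibres and are divided by the fibres they serve into fast and slow types, while gamma motor neurons set the sensitivity of muscle spindles. They are a small minority of cord cells, so in bulk RNA fewer motor neurons and less RNA per motor neuron cannot be told apart.

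Library totals lay between 15973063 and 19437533 counts. Lhx1os, the targeted gene, had 13 and 11 counts in KO and 56, 66 and 51 in WT. Its log2 fold change, KO over WT, stood at −2.13 (SE 0.28), with an adjusted p of 0.0589 in edgeR's quasi-likelihood test. It did not pass at 0.05, though both KO libraries lay below the 3 WT libraries. All 10 genes of a spinal cord list, with neuronal, oligodendrocyte, astrocyte and microglial markers and the trunk Hox gene Hoxc8, passed the filter on low counts, so the tissue label held. WT replicate 2 stood apart in sensory ganglion genes. Scn10a, a sodium channel of nociceptive ganglion neurons, had 2 and 1 counts in KO and 2, 306 and 2 in WT, the 306 being in WT replicate 2. The 9 genes of that list summed to CPM values (counts scaled to a common library size) of 2.82 and 3.44 in KO, and to 3.81, 52.3 and 3.2 CPM in WT. Isl1, Isl2, Calca and Calcb are also known as genes of sensory ganglion neurons, so their values are given with and without that library.

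Several markers are paralogues whose reads can be hard to assign, so the coding sequences around their longest shared run are shown first. Calca and Calcb encode alpha and beta calcitonin gene-related peptide (CGRP) and neighbour each other on chromosome 7 of GRCm38. Their coding sequences share a run of 61 identical bases. The windows of 121 bases around it differ at 26 positions, shown in capitals, most of them ahead of the run. The windows span chr7:114632511-114634499 on the minus strand for Calca and chr7:114721681-114722063 on the plus strand for Calcb, introns included.
Calca: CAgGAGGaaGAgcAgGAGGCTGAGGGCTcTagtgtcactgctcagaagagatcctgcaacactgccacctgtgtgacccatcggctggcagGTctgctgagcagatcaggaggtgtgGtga
Calcb: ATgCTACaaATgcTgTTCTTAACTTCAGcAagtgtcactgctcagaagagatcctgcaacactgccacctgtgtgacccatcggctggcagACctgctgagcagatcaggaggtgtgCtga
Isl1 and Isl2 share at most 23 identical bases, and in the windows of 83 bases around that run 9 positions differ. They lie at chr13:116303206-116303288 on the minus strand and chr9:55544117-55544199 on the plus strand.
Isl1: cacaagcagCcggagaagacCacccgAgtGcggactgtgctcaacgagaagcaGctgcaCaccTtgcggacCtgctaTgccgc
Isl2: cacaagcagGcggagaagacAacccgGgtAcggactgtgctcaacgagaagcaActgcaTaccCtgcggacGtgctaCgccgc
The longest coding run common to Esrrb and Esrrg has 17 bases. Neither the read length nor the treatment of reads with several alignments is stated in the labels, so the split of reads between Calca and Calcb is uncertain, and less so for the other pairs.

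Among the pan-motor factors, no difference between the genotypes passed. Isl1 (ENSMUSG00000042258, chromosome 13, 116298281 to 116309689), a LIM-homeodomain factor that begins the motor neuron programme, had 39 and 25 counts in KO and 41, 48 and 42 in WT. After scaling for library size these were 2.39 and 1.56 CPM in KO and 2.44, 2.45 and 2.59 CPM in WT. Both KO values lay below the WT values, by a narrow margin for KO replicate 1. The means were 1.98 ± 0.586 CPM in KO (SD, n = 2) and 2.49 ± 0.081 CPM in WT (SD, n = 3). This is a log2 difference of −0.33 by edgeR (SE 0.27; adjusted p = 0.791). The 25 counts of KO replicate 2 carry an exact 95% Poisson interval of 16.2 to 36.9, which covers counting error only. Without WT replicate 2, the library with sensory ganglion RNA, the log2 fold change was −0.34. Leaving out KO replicate 1 gave −0.67 and leaving out KO replicate 2 gave −0.06, so its size rested on KO replicate 2.

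Isl2 (ENSMUSG00000032318, chromosome 9, 55538672 to 55546180), the paralogue that acts beside Isl1, stood at 2.33 and 1.88 CPM in KO and at 2.5, 2.61 and 1.72 CPM in WT. The groups overlapped, and WT replicate 2 was the highest library. Its log2 fold change was −0.12 (SE 0.28; adjusted p = 0.936, edgeR), and −0.01 without WT replicate 2. Mnx1 (ENSMUSG00000001566, chromosome 5, 29473034 to 29478470), the homeodomain factor HB9 that keeps interneuron programmes off in motor neurons, stood at 3.37 and 2.31 CPM in KO and at 3.69, 1.63 and 1.42 CPM in WT. WT replicate 1 was the highest of all and the other WT libraries were the lowest, a 2.61-fold range within WT. Mnx1 had a log2 fold change of 0.35, with SE 0.40 and an adjusted p of 0.855 in edgeR. Without WT replicate 1 it was 0.89 and without KO replicate 1 it was 0.04, and neither passed.

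Across all genes the edgeR test called 3 of 16052 at an adjusted p under 0.05, or 0.0187%, and 0 of the 10 markers. At an unadjusted p under 0.05 there were 7.57% of all genes and 0 of the 10 markers, and DESeq2 called 0.249% of genes and 0 markers. Libraries of the genotypes did not overlap for 24.9% of all genes (12.0% with KO lower) and for 1 of the 10 markers, Isl1, a share below that background. Of the 10 markers 5 had positive and 5 negative log2 fold changes. Their median was 0.06, beside a median of 0.0 over all genes tested.

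**Figure D1:**
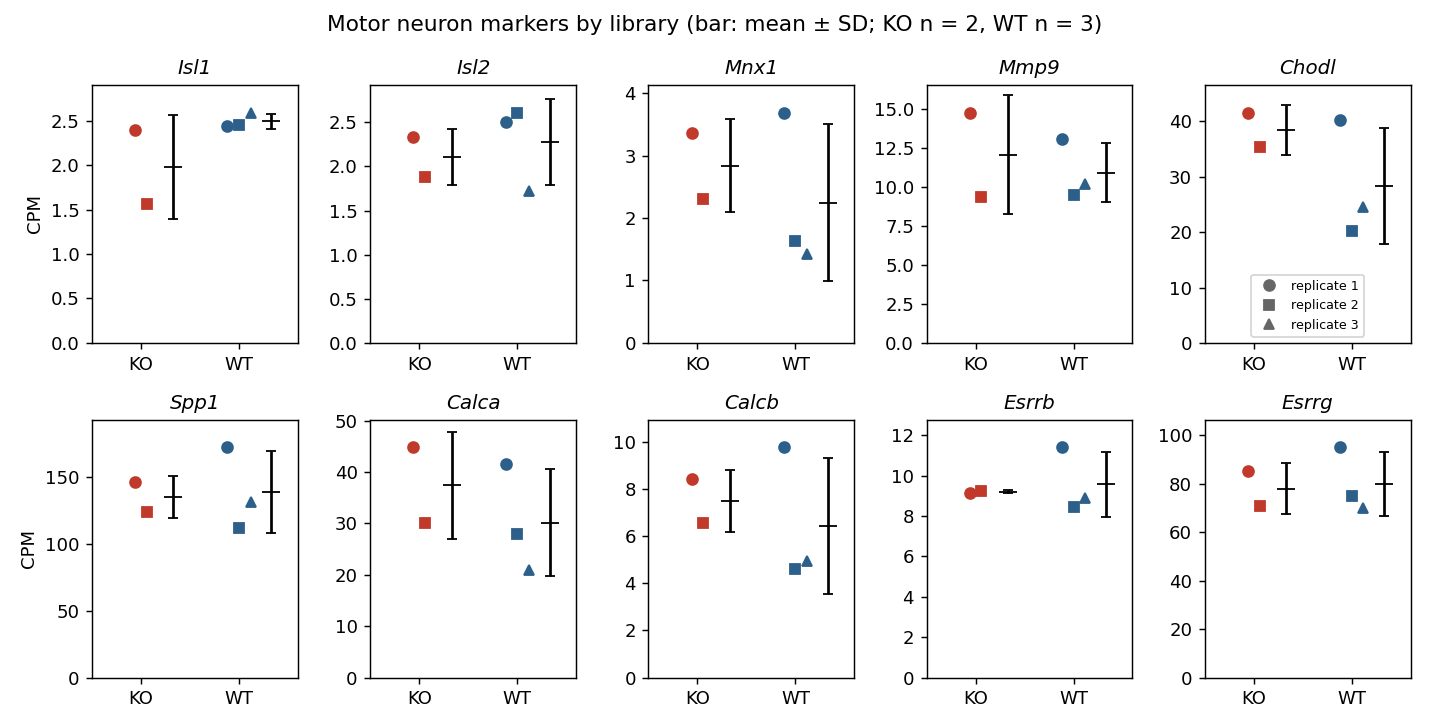
Level of each marker in CPM (vertical axis, from 0) in each KO and WT library, with symbols for replicate numbers and a bar for the mean ± SD (KO n = 2, WT n = 3). Isl1 alone has both KO points below every WT point, at 2.39 and 1.56 CPM against 2.44 to 2.59 CPM, and in Mnx1, Chodl, Calca and Calcb WT replicate 1 lies well above the other WT libraries.

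Among the markers of alpha and fast alpha motor neurons, Chodl had the largest log2 fold change of the 10 genes but did not pass. Chodl (ENSMUSG00000022860, chromosome 16, 78930948 to 78951733) encodes chondrolectin, a C-type lectin-like membrane protein enriched in fast motor neurons of the mouse. It stood at 41.6 and 35.3 CPM in KO and at 40.2, 20.3 and 24.5 CPM in WT. The groups overlapped because WT replicate 1 lay between the KO libraries, while the other WT libraries lay below both. Chodl averaged 38.5 ± 4.43 CPM in KO (SD, n = 2) and 28.3 ± 10.5 CPM in WT (SD, n = 3). The log2 fold change was 0.45 (SE 0.22; adjusted p = 0.7, edgeR), with a 95% interval from −0.05 to 0.95. Without WT replicate 1 it was 0.78 (SE 0.12) and passed, at an adjusted p of 0.0277 in edgeR. That setting called 58 genes, against 3 with all libraries. The log2 fold change of Chodl was 0.25 with WT replicate 2 left out and 0.32 with KO replicate 1 left out. Chodl passed under no other alternative tried.

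Mmp9 (ENSMUSG00000017737, chromosome 2, 164940780 to 164955850) encodes a secreted matrix metalloproteinase that marks fast, disease-vulnerable motor neurons in mice. Its level was 14.8 and 9.38 CPM in KO and 13.1, 9.5 and 10.2 CPM in WT. The KO libraries held both the highest and the lowest value. The log2 fold change was 0.15 (SE 0.20; adjusted p = 0.885, edgeR), and it depended on the KO library kept, at −0.22 with replicate 1 left out and 0.44 with replicate 2 left out. Mmp9 is also a neutrophil gene, and the neutrophil list summed to 3.19 and 2.56 CPM in KO and to 2.74, 2.2 and 1.6 CPM in WT. Its leading gene, S100a9, had 20 and 17 counts in KO and 23, 20 and 6 in WT, and the granule genes Elane and Mpo had at most 2 counts in any library. Ngp, another granule gene of the list, had 11 and 9 counts in KO and 5, 3 and 2 in WT, higher in both KO libraries. This held for 12.9% of all genes tested, and Ngp itself did not pass the filter on low counts. Elane, Mpo and Ngp were named after their values were seen, and the part of neutrophil RNA in the Mmp9 values was not tested.

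Spp1 (ENSMUSG00000029304, chromosome 5, 104435118 to 104441050) encodes osteopontin, a secreted phosphoprotein found in alpha motor neurons and also in activated microglia and bone. It stood at 146.0 and 124.0 CPM in KO and at 172.0, 112.0 and 131.0 CPM in WT. Both KO values lay within the range of WT. The log2 fold change was −0.03 (SE 0.15; adjusted p = 0.976, edgeR), with a 95% interval from −0.36 to 0.30, that is from 0.777-fold to 1.23-fold. Bglap, the osteocalcin gene of bone, had 1 and 0 counts in KO and 0 in each WT library, and Ibsp had 1 to 4 counts in a library. Other bone genes of the list were higher. Sp7 had 92 and 101 counts in KO and 89, 88 and 72 in WT. Ctsk had 96 and 119 counts in KO and 104, 155 and 152 in WT. Sp7 and Ctsk were named after their values were seen, and the part of bone RNA in the Spp1 values was not tested. The summed level of the 8 bone genes was 42.8 and 34.8 CPM in KO and 37.3, 41.9 and 42.0 CPM in WT, most of it from Alpl and Dmp1, and 0 of the 5 measured genes passed. The activated microglia list also had 0 of 7 measured genes passing, 4 higher and 3 lower in KO. Spp1 shares 309 exon bases with the predicted gene Gm42793 on the same strand, which itself had 5 and 2 counts in KO and 5, 5 and 2 in WT.

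Calca (ENSMUSG00000030669, chromosome 7, 114631478 to 114636357), whose transcripts encode calcitonin or alpha CGRP, stood at 44.8 and 30.1 CPM in KO and at 41.5, 27.9 and 21.0 CPM in WT. Replicate 1 of each genotype was high and the groups overlapped. Its log2 fold change was 0.31 (SE 0.24; adjusted p = 0.780, edgeR), and 0.26 without WT replicate 2. Without KO replicate 1 it was −0.01 and without WT replicate 1 it was 0.61, with no pass in either case. Calcb (ENSMUSG00000030666, chromosome 7, 114718643 to 114723365), the beta CGRP gene shown beside Calca above, stood at 8.4 and 6.56 CPM in KO and at 9.76, 4.6 and 4.93 CPM in WT. WT replicate 1 was highest and KO replicate 1 next, the reverse of their order for Calca. Its log2 fold change was 0.23 (SE 0.30; adjusted p = 0.878, edgeR), and 0.03 without WT replicate 2. It was 0.65 with WT replicate 1 left out, 0.07 with WT replicate 3 left out and 0.03 with KO replicate 1 left out, and did not pass in these. In the library with sensory ganglion RNA, Calca was below all but WT replicate 3 and Calcb was at its lowest.

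The estrogen-related receptor genes had log2 fold changes close to 0. Esrrb (ENSMUSG00000021255, chromosome 12, 86361117 to 86521628), an orphan nuclear receptor listed for slow motor neurons, stood at 9.14 and 9.25 CPM in KO and at 11.4, 8.43 and 8.87 CPM in WT. The KO libraries lay between WT replicates 3 and 1. Its log2 fold change was −0.05 (SE 0.16; adjusted p = 0.957, edgeR), with an interval from 0.755-fold to 1.23-fold. Esrrg (ENSMUSG00000026610, chromosome 1, 187608791 to 188214885), the related receptor that is high in gamma motor neurons, stood at 85.3 and 70.6 CPM in KO and at 95, 74.8 and 69.9 CPM in WT. The groups overlapped here too. The log2 fold change of Esrrg was −0.03 (SE 0.12; adjusted p = 0.966, edgeR), and its interval, from 0.805-fold to 1.18-fold, was the narrowest of the 10. The part of cells other than motor neurons in the values of either receptor gene was not tested.

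**Figure D2:**
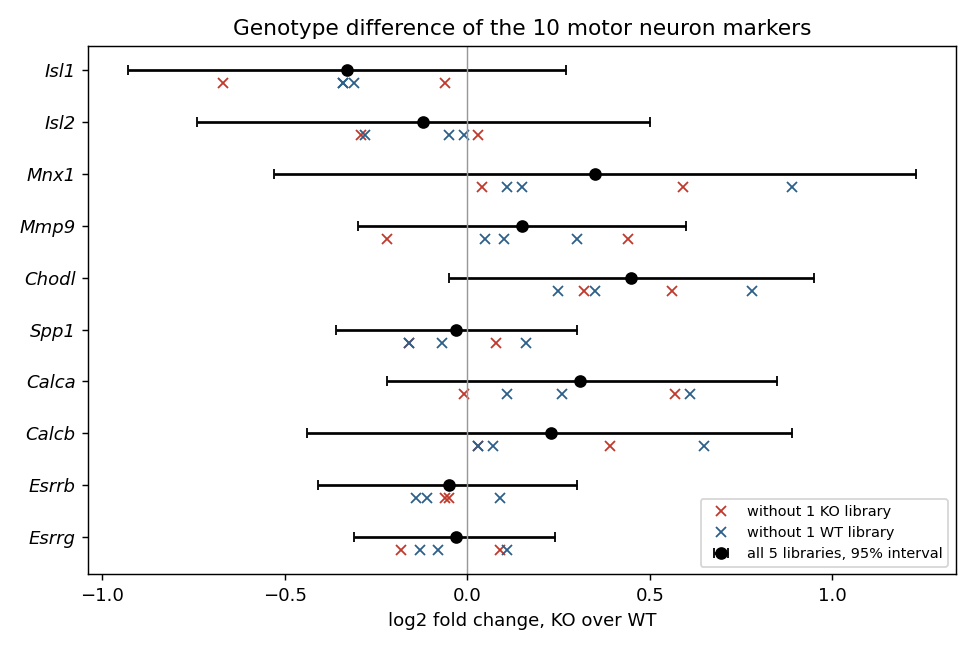
Log2 fold change of KO over WT (horizontal axis) for each marker with all 5 libraries (black, with its 95% interval) and with a single KO (red) or WT (blue) library left out. Each black interval includes 0, from Esrrg at −0.31 to 0.24 up to Mnx1 at −0.53 to 1.23, and the crosses of 6 genes fall on both sides of 0.

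Levels can be compared between genes only per length, as CPM per kilobase of annotated exon. On that scale and over all 5 libraries Spp1 was highest at 83.1, followed by Calca at 19.6, Esrrg at 12.7, Chodl at 5.9 and Calcb at 5.42. Mmp9 followed at 3.23, Esrrb at 1.56, Mnx1 at 1.1, Isl2 at 1.01 and Isl1 at 0.578. Spp1 ranged from 67.8 to 105.0 over the libraries, clear of Calca at 12.5 to 26.6. The ranges of Calca and Esrrg overlapped, as did those of Chodl and Calcb, of Chodl and Mmp9, and of Calcb and Mmp9. So did those of Esrrb and Mnx1, and of Mnx1 and Isl2. Isl1, at 0.395 to 0.653, also reached into the range of Mnx1, at 0.629 to 1.64. By their means the 3 developmental factors were the lowest of the 10, with Isl1 at 0.499 in KO and 0.63 in WT.

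The larger differences ran between libraries within a genotype. WT replicate 1 had the highest value of 5 markers and KO replicate 1 of 3, the exceptions being Isl1, highest in WT replicate 3, and Isl2, highest in WT replicate 2. Relative to each gene's own mean over the 5 libraries on the log2 scale, the markers had a median of 0.24 for KO replicate 1 and of −0.11 for the other KO library. It was 0.32 in WT replicate 1, −0.22 in WT replicate 2 and −0.24 in WT replicate 3. In WT replicate 1 all 10 markers were above their own mean, and in KO replicate 1 all but Esrrb. The standard deviation of log2 CPM within groups had a median of 0.307 over the markers, beside 0.115 over all genes tested, and each marker lay above that second value. For Isl1 and Isl2 the chi-square per degree of freedom within groups was 0.964 and 1.41, where counting error alone gives about 1. For the other 8 markers it lay between 3.07, for Esrrb, and 92.7, for Spp1. This ratio grows with the count, and the standard deviations of log2 CPM lay closer together, from 0.186 for Esrrb to 0.616 for Mnx1, with 0.275 for Spp1 and 0.239 for Isl1.

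**Figure D3:**
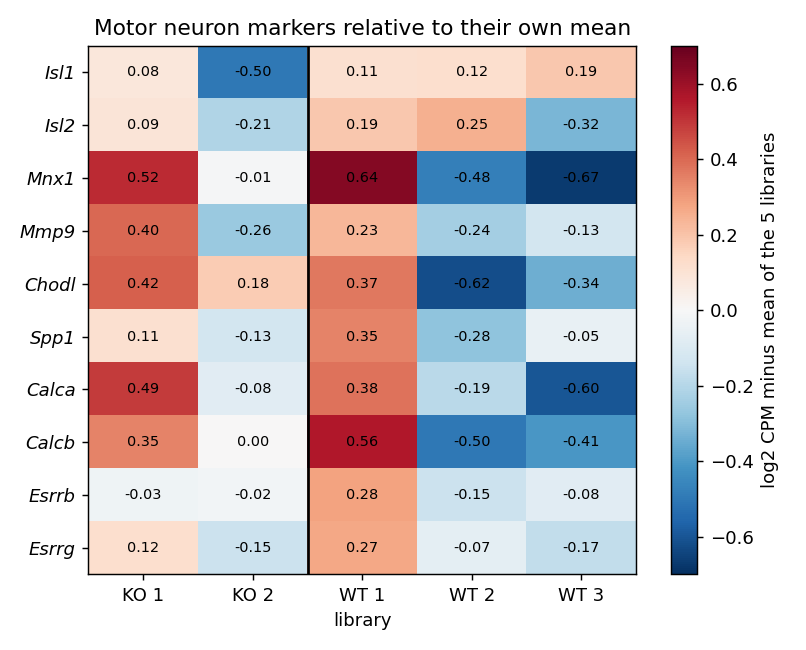
Log2 CPM of each marker (rows) in each library (columns, KO left of WT) minus its mean over the 5 libraries. KO replicate 1 and WT replicate 1 are warm in nearly every row, reaching 0.52 and 0.64 for Mnx1, while Isl1 and Isl2 follow a different order.

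Sums of other tissue differed between the libraries too. The Schwann cell and meningeal sums were lowest in WT replicate 1 and next lowest in KO replicate 1, though for the meningeal list KO replicate 2 was close. The meningeal fibroblast list summed to 256.0 and 269.0 CPM in KO and to 211.0, 409.0 and 481.0 CPM in WT, and was lowest in WT replicate 1. All 8 of its genes had negative log2 fold changes (median −0.44) and 0 passed. For 2 of the 8 both KO libraries lay below WT, beside 12.0% of all genes tested. The Schwann cell list, from nerve roots, summed to 243.0 and 368.0 CPM in KO and to 203.0, 346.0 and 419.0 CPM in WT, with 0 of 7 genes passing. All 7 had negative log2 fold changes (median −0.38). For 2 of the 7, Pmp2 and Cdh19, both KO libraries lay below WT, beside the same 12.0% of all genes. Pmp2 had only 5 and 5 counts in KO and 13, 12 and 12 in WT. Pmp2 and Cdh19 were named after their values were seen. The skeletal muscle list summed to 17.7 and 6.81 CPM in KO and to 7.5, 6.39 and 3.51 CPM in WT, highest in KO replicate 1. All 7 measured genes had positive log2 fold changes (median 0.80), and 0 passed. The part of these tissues in the marker values was not tested.

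Hox genes, whose expression follows position along the cord, differed most between libraries of the same genotype. Hoxc10, a gene of the lumbar cord, stood at 4.78 and 33.3 CPM in KO and at 6.01, 5.57 and 17.7 CPM in WT. Hoxd10 had 0 and 117 counts in KO and 1, 0 and 7 in WT, and Hoxa11, Hoxc11 and Hoxd11 had counts in KO replicate 2 alone, at 30, 18 and 30; these 4 were named after their values were seen. Hoxb5, a more rostral gene, stood at 37.0 and 35.4 CPM in KO and at 35.2, 47.1 and 26.9 CPM in WT. Mean log2 CPM of caudal Hox genes minus that of rostral ones was −1.13 and 0.67 in KO and −0.998, −1.76 and 0.47 in WT. KO replicate 1 and WT replicate 1, with the highest marker levels, were close to each other on this score, between WT replicate 2 on the rostral side and the other libraries on the caudal side.

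With that score as a covariate, which assumes a straight-line relation, no marker passed. The log2 fold change was then 0.47 (SE 0.25) for Chodl, 0.46 (SE 0.21) for Calca, 0.48 (SE 0.42) for Mnx1 and −0.29 (SE 0.29) for Isl1. The signs of Isl2 and Esrrg turned, both to 0.02. The labels give no segment, so cord level and individual differences between mice cannot be told apart.

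**Figure D4:**
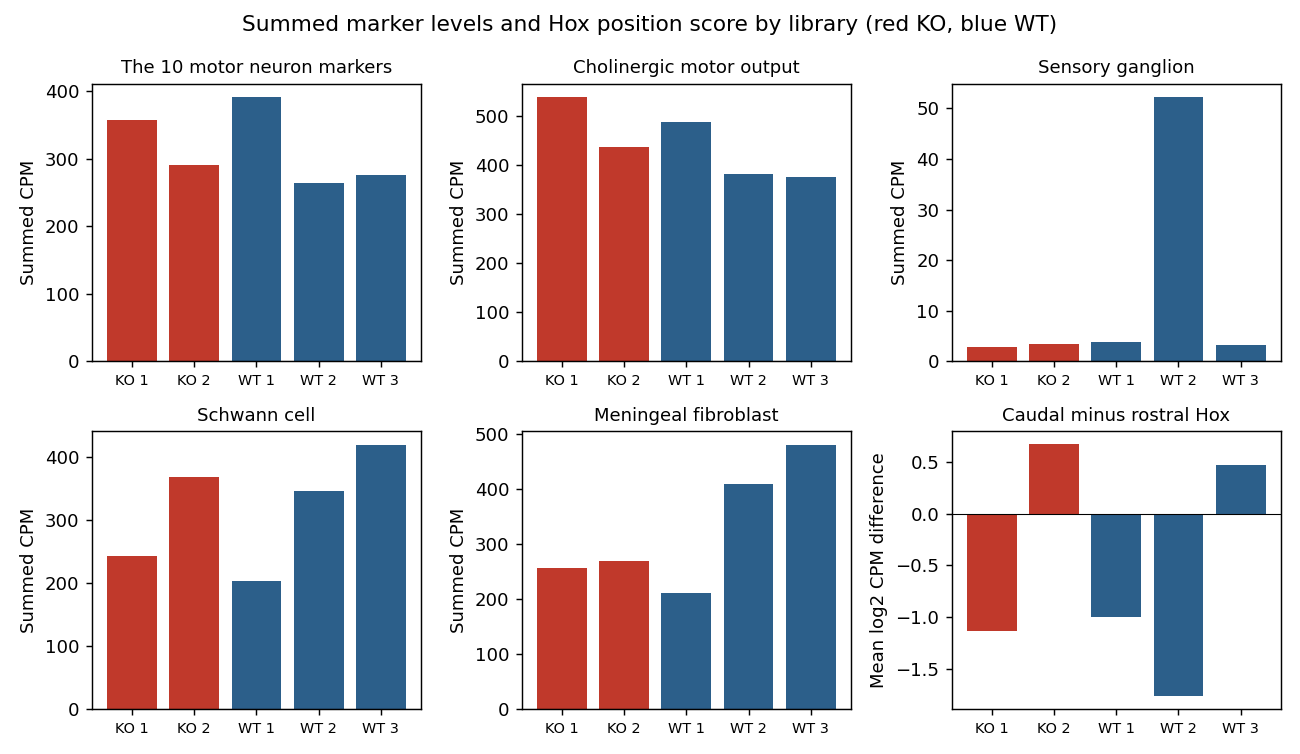
Summed CPM of the 10 markers, of cholinergic output genes and of 3 lists from neighbouring tissue, and the caudal minus rostral Hox score (mean log2 CPM difference), in KO (red) and WT (blue) libraries. The markers are highest in KO replicate 1 and WT replicate 1, where the Schwann cell sums are lowest at 243.0 and 203.0 CPM, and the sensory ganglion sum reaches 52.3 CPM in WT replicate 2 alone.

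Dividing each marker by Chat, the choline acetyltransferase gene, within a library gives a level per unit of cholinergic RNA. Chat itself stood at 41.8 and 26.9 CPM in KO and at 37.2, 25.5 and 30 CPM in WT, and did not pass (0.15, SE 0.19; adjusted p = 0.861, edgeR). Mmp9 per Chat was 0.355 and 0.349 in KO and 0.353, 0.372 and 0.341 in WT. It varied 1.09-fold over the libraries, whereas Mmp9 in CPM varied 1.58-fold. With other cholinergic genes below the line, Mmp9 varied 1.27-fold per Slc5a7 and 1.58-fold per Slc18a3. The narrow range thus depended on the gene below the line. Chodl per Chat was 0.996 and 1.31 in KO and 1.08, 0.794 and 0.817 in WT, overlapping through WT replicate 1. Isl1 per Chat was 0.0573 and 0.0581 in KO and 0.0655, 0.096 and 0.0862 in WT, lower in both KO libraries. Over all genes tested this held for 2.76% per Chat, 2.67% per Slc5a7 and 12.8% per Slc18a3. Among the markers it held for Isl1 alone per Chat and per Slc5a7, and per Slc18a3 for 6 of 10, Isl1, Isl2, Mmp9, Spp1, Esrrb and Esrrg. Higher ratios in both KO libraries were found for Chodl per Slc5a7, as for 0.436% of all genes, and for 0 markers per Chat or per Slc18a3, beside 0.847% and 0.118% of all genes. Slc18a3 itself, at 59.9 and 41.1 CPM in KO and at 47.7, 30 and 28.3 CPM in WT, is the denominator with the largest log2 fold change of the 3. These ratios were chosen after the levels had been seen and were not tested.

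Further motor neuron genes did not pass either. Of 35 genes on 5 further motor neuron lists 33 were measured, and 23 had positive and 10 negative log2 fold changes (median 0.06), where 51.3% of all genes tested were positive. In edgeR 0 of them passed over all genes in either direction. KO lay above WT without overlap for 4 of the 33 and below it for 2, beside 12.9% and 12.0% of all genes tested. At an unadjusted p under 0.05 there were 4, Ache, Slc18a3 and Creb5 on the positive side and Kcnn3 on the negative side. This is 4 of 33, beside 7.57% of all genes tested. Of the 4, Slc18a3 and Kcnn3 were named after their values were seen.

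All 5 cholinergic output genes had positive log2 fold changes with all libraries, but without KO replicate 1 Chat was at −0.20 and Slc5a7 at −0.09. The acetylcholinesterase gene Ache stood at 215.0 and 211.0 CPM in KO and at 190.0, 195.0 and 171.0 CPM in WT. It was higher in both KO libraries, as were 12.9% of all genes tested. The log2 difference of Ache was 0.20 by edgeR (SE 0.07; adjusted p = 0.578). Slc5a7, the choline transporter gene, had 0.21 (SE 0.21), and Slc18a3, the vesicular acetylcholine transporter gene, 0.52 (SE 0.21; adjusted p = 0.644, edgeR). With a library left out Slc18a3 ranged from 0.21, without KO replicate 1, to 0.79, without WT replicate 1. Among the other gamma markers, Creb5, a bZIP transcription factor gene, stood at 20.4 and 17.3 CPM in KO and at 13.0, 12.8 and 12.4 CPM in WT. Its log2 fold change was 0.57 (SE 0.11; adjusted p = 0.193, edgeR), and in edgeR it passed without a filter on low counts (adjusted p = 0.0264). That setting called 96 genes, against 3 with the filter. The part of cells other than gamma motor neurons in the Creb5 values was not tested. Gfra1, a receptor gene for glial cell line-derived neurotrophic factor, had 0.14 (SE 0.07; adjusted p = 0.666, edgeR). Ache shares 98 exon bases and Gfra1 416 with opposite-strand genes, and Creb5 shares 164 with a same-strand small nuclear RNA gene, so reads there may be split.

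Among other alpha markers Sv2a and Sv2b lay near 0, with log2 fold changes of 0.05 (SE 0.06) and 0.02 (SE 0.10). Both are synaptic vesicle glycoprotein genes that many neurons express. Kcnn3, the SK3 potassium channel gene known from slow motor neurons, had −0.25 (SE 0.09; adjusted p = 0.596, edgeR). It stood at 24.5 and 21.8 CPM in KO and at 27.4, 28.0 and 27.2 CPM in WT. Both KO libraries were thus lower, as for 12.0% of all genes tested. Of the specification factors Olig2, which is abundant in the oligodendrocyte lineage of the adult, had −0.14 (SE 0.11) and Ebf2 −0.11 (SE 0.20). The column and pool factors Zeb2 and Foxp1, also expressed outside motor neurons, had 0.05 (SE 0.07) and −0.07 (SE 0.09). Aldh1a2, a retinoic acid synthesis gene of motor columns and meninges, was named after its values were seen. It stood at 12.5 and 12.6 CPM in KO and at 9.46, 20.9 and 21.5 CPM in WT. Like the meningeal sum, and unlike most markers, it was lowest in WT replicate 1. It passed as lower in KO when that library was left out (−0.76; adjusted p = 0.0277, edgeR), against −0.47 with all libraries. That setting called 58 genes, and the part of meningeal RNA in the Aldh1a2 values was not tested.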

How the data were processed

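Polyadenylated RNA of snap-frozen, powdered spinal cord was sequenced with a stranded mRNA kit, per the labels' protocols. What the authors deposited is a table of unnormalised read counts for each gene, made with cutadapt, Trimmomatic, STAR 2.5.2b and HTSeq on GRCm38, per the submitters' processing notes. Neither the annotation release nor the strand option used in counting was named in those sources. Groups and replicate numbers came from sample titles. Symbols, coordinates and exon lengths were taken from GENCODE M21 (GRCm38), where 55230 of 55471 identifiers were found.

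The filterByExpr function of edgeR removed genes of low count (its settings: count 10, total 15). KO was compared with WT with the quasi-likelihood F test of edgeR 4.0.16 (R 4.3.3), TMM factors, no covariate and Benjamini-Hochberg adjustment over 16052 genes at 0.05. CPM used the TMM-adjusted library sizes. Approximate 95% intervals of log2 fold changes come from the standard error and degrees of freedom of that test. No 2 libraries of a genotype were alike within sampling noise (chi-square per degree of freedom 4.23 to 7.98). The Hox score used the 5 caudal and 7 rostral genes that passed the filter. The alternatives were other size factors, other filters, robust dispersion, DESeq2 1.42.0, limma-voom (limma 3.58.1), a replicate block, a Hox covariate, another threshold and each library left out.

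The markers and lists were chosen with earlier results of these data known. Named genes are the 10 markers, Lhx1os and, from each further motor neuron list, passing genes or else the 2 most abundant; from lists of other cell types and Hox genes, the 2 most abundant could be named. Genes outside this rule are said to be named after their values were seen, as are the defining genes Elane, Mpo, Bglap and Ibsp, Hoxc8 and Chat, given as checks or denominators.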

Additional observations from a re-analysis of the deposited data

How the results depend on the processing

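The counts of called genes moved most. Against 3 genes in edgeR with all libraries, 6 were called with DESeq2 size factors, 96 without a filter, 40 by DESeq2, 1 by limma-voom, 12 with robust dispersion, 25 with the replicate block, 0 with the Hox covariate, 15 at a threshold of 0.1, and 0 to 58 with a library left out. Of the 10 markers 0 passed under each alternative but without WT replicate 1, where Chodl passed, so the range was 0 to 1. Of the further motor neuron genes Aldh1a2 alone passed without WT replicate 1, and Creb5 alone without a filter. These settings called 58 and 96 genes in all. Lhx1os passed with DESeq2 size factors (−2.14), without a filter (−2.14), with DESeq2 (−2.15), robust dispersion (−2.13) and the replicate block (−2.16), and ranged from −2.25 to −2.03 with a library left out, passing without WT replicate 1. Over 13 alternatives the marker fold changes kept their sign in all but 10 of 130 values, and Isl1, Mnx1, Chodl and Calcb kept it in all. With the Hox covariate Isl2 and Esrrg turned to 0.02. Leaving out 1 library gave ranges of −0.29 to 0.03 for Isl2, −0.22 to 0.44 for Mmp9, −0.16 to 0.16 for Spp1, −0.01 to 0.61 for Calca, −0.14 to 0.09 for Esrrb and −0.18 to 0.11 for Esrrg. Among the other named genes it gave −0.35 to 0.04 for Olig2, −0.33 to 0.04 for Ebf2, −0.01 to 0.10 for Zeb2, −0.09 to 0.48 for Slc5a7, −0.07 to 0.13 for Sv2b and −0.20 to 0.44 for Chat. The cause of these turns was not tested. The replicate block turned Ebf2 to 0.08. Deviations of same-numbered libraries from their group means correlated at 0.058 and 0.002. With only 2 KO libraries the KO deviations mirror each other, so these correlations cannot decide whether libraries were paired. Sample descriptions of same-numbered libraries carry consecutive numbers, but no pairing is stated. Without 1 KO library, the lone one is assumed to vary like the WT libraries. With these counts and this spread between libraries, the intervals of Isl1 and Mnx1 leave differences of 0.526-fold to 1.2-fold and 0.691-fold to 2.34-fold undetermined.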

Other observations

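Esrrb and Esrrg encode receptors that bind the extended half-site TCAAGGTCA, whose core is AAGGTCA, which lies within the longer word. Both were searched on both strands in RefSeq promoter windows of GRCm38.p6, from 250 bases before to 50 bases after annotated gene starts. The table held 13 windows for 8 of the 10 markers. The longer word occurred in 0 of these windows and in 0.423% of all 32851 windows, and the core in 0 and in 4.72%. This says only that these letters are not in these windows.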
